A study of Mus musculus with 6 samples.

Results

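Chemokine receptors are G protein-coupled receptors that let a blood cell sense a gradient of chemokines, small secreted proteins, and move along it. Ligand binding activates an inhibitory G protein, whose freed subunits drive lipid kinases, phospholipase C and Rac, while receptor kinases and arrestins end the signal. In bone marrow, Cxcr4 holds stem cells, progenitors and immature neutrophils near stroma that makes Cxcl12, Cxcr2 draws mature neutrophils into blood, and Ccr2 lets monocytes leave. The family described here comprises the genes of the deposited table whose symbol is Ccr or Cxcr followed by digits alone. Among the 12161 genes of the table, 8 are described here, namely Ccr1, Ccr2, Ccr4, Ccr7, Ccr9, Ccr10, Cxcr2 and Cxcr4. Other Ccr and Cxcr genes are not analysed here.

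Expression was measured by mRNA sequencing in LSK cells from C57BL/6 bone marrow, a fraction sorted as Kit-positive and Sca1-positive without lineage markers in which blood stem cells and early progenitors are found. One group carried MIG-Hhex, a GFP retrovirus with the homeobox factor Hhex (3 libraries, genotype label Hhex), and the other the empty vector MIG (3 libraries, genotype label wild-type). The culture of both groups lasted 2 days, with SCF and Flt-3 at 50 ng/mL and IL-6 and IL-3 (written mL-3 in the labels) at 10 ng/mL, and GFP-positive cells were sorted for RNA. The vector adds Hhex to every transduced cell type, the animals' age is not given in the sources used here, and each group has a library of replicate WT3, of WT691 and of WT703. Nothing states that each name is a separate animal, so p-values measure the spread between these libraries.

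Library medians lay between 3.56 and 3.60 on the deposited log2 scale, and the sequencing depth is unknown. Hhex stood at 7.61, 9.34 and 9.06 in the MIG-Hhex libraries of replicates WT3, WT691 and WT703, against 5.18, 5.05 and 5.13 in the MIG libraries, so the lowest Hhex level with MIG-Hhex was in replicate WT3. That replicate was sequenced on flow cell C3RJFACXX and the other 4 libraries on flow cell C5LWPANXX. Of the 8 LSK defining markers, 0 passed the test in either direction. The smallest p was that of Cd48, a surface protein of early progenitors, which averaged 7.19 ± 0.32 with MIG-Hhex and 7.53 ± 0.28 with MIG (SD, n = 3 each; log2 difference −0.34, limma adjusted p = 0.0543). It passed as lower with the replicate block (limma adjusted p = 0.00896). Replicate WT3 differed in Ly6a, the gene of the sort marker Sca1, at 3.55 with MIG-Hhex and 3.18 with MIG. In WT691 and WT703 Ly6a stood at 6.21 and 5.89 with MIG-Hhex and at 6.25 and 6.08 with MIG. Kit, the other sort marker, was 4.45 with MIG-Hhex and 4.62 with MIG in WT3, against 4.44 to 4.86 in the other 4 libraries. In bulk libraries such as these, fewer cells of a type and less RNA per cell cannot be told apart.

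The family split into both directions. With MIG-Hhex, Cxcr2, Ccr4, Ccr7 and Ccr10 were higher, Ccr1 and Ccr2 were lower, and Ccr9 and Cxcr4 did not pass the test (limma on the log2 values with a flow cell term, Benjamini-Hochberg over all genes, adjusted p under 0.05). Of the 8 genes, 4 were thus higher, against 9.44% of all genes, and 2 were lower, against 8.52% of all genes. Together that is 75% of these genes, where 18.0% of all genes passed. The family was chosen with earlier results of these data known, and a receptor that meets the rule is left out. The shares therefore describe the 8 genes and are no test of the family. The median difference of the 8, MIG-Hhex minus MIG, was 0.53 on the log2 scale, beside −0.02 over all genes. The MIG-Hhex and MIG libraries did not overlap for 5 of the 8 genes, against 21.2% of all genes. The MIG-Hhex libraries were above for 3 of them, against 10.2% of all genes, and below for 2, against 11.0%. The sign was the same in all 3 replicates for 6 of the 8, against 59.8% of all genes. In a fit with no term for flow cell, 0 receptor genes were higher and 2 lower, where 119 of the 12161 genes were higher and 98 lower. Leaving out a replicate name or a single library gave 1 to 3 receptor genes higher and 2 to 3 lower. Over all genes, those runs gave 355 to 835 higher and 270 to 634 lower. Only 1 receptor gene was higher when replicate WT691, replicate WT703 or the MIG-Hhex library of either was left out. With the MIG library of either left out, 2 were higher.

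**Figure D1:**
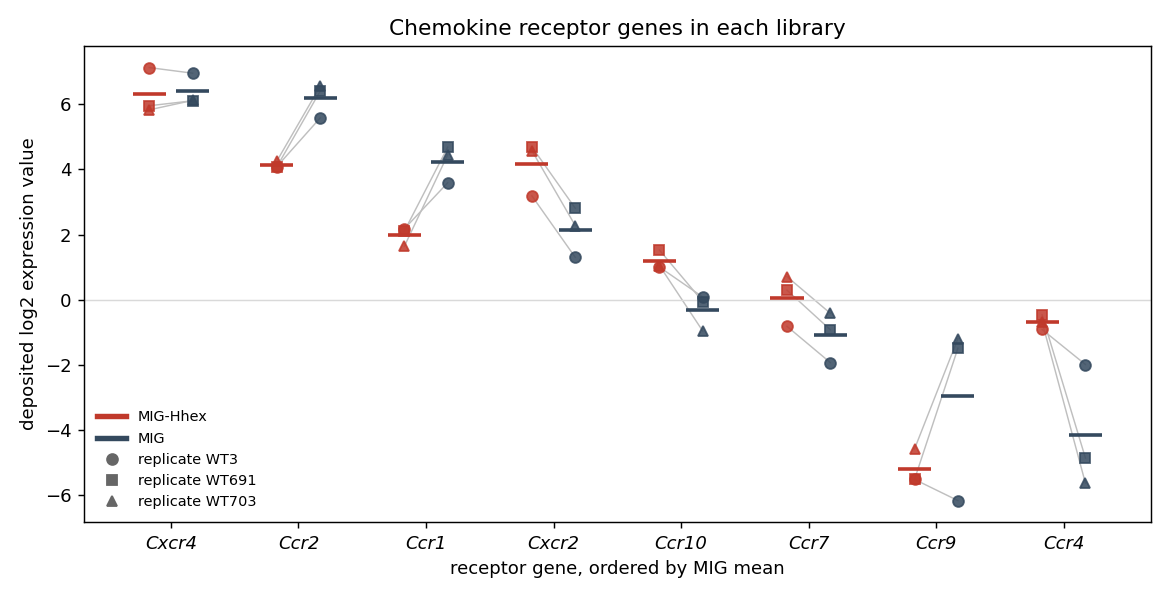
Deposited log2 value (vertical axis) of the 8 receptor genes, ordered by their MIG mean, in the 3 MIG-Hhex libraries (red) and the 3 MIG libraries (dark). Marker shapes give the replicate, grey lines join libraries of the same replicate and bars are group means; Ccr1 and Ccr2 lie lower in every MIG-Hhex library, Cxcr2 lies higher, and Cxcr4 is the highest mean in both groups.

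The genes lie on 3 chromosomes. On mouse chromosome 9, Ccr9, Ccr1 and Ccr2 fall within 342.0 kb of a chemokine receptor cluster, and Ccr4 lies 9.26 Mb before Ccr9 on the same chromosome. Chromosome 1 carries Cxcr2 and Cxcr4, and chromosome 11 carries Ccr7 and Ccr10. Promoter sequence of Ccr1, Ccr2 and Cxcr2 is shown because these are the members whose libraries separated furthest relative to their error. The 250 bases before the RefSeq start of Ccr1 (GRCm38.p6, chr9:123968693-123968942, minus strand) and of Cxcr2 (chr1:74153744-74153993, plus strand) are given 5′ to 3′. For Ccr2 the 30 bases of its window farthest from the start are given (chr9:124101933-124101962, plus strand). They lie within the RefSeq gene, whose most upstream start is before the window. Capitals mark ATTAA, a homeodomain core sequence, on either strand.
Ccr1: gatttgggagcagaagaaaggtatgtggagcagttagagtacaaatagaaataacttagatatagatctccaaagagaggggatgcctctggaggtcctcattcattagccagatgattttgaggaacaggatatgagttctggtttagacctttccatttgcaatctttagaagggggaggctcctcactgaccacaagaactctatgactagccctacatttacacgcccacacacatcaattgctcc
Ccr2: agcaagatttcaaaATTAATcctgtaaaga
Cxcr2: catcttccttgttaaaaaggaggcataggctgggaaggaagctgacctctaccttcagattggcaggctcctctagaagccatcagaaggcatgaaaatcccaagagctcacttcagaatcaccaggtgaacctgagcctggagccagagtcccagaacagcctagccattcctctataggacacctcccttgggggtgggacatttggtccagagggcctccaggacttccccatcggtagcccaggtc

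Windows of 250 bases were available for 6 receptor genes and were searched on both strands for ATTAA, for the GATA letters AGATAA, for the ETS letters GAGGAAG and for the C/EBP letters TTGCNNAA. The Ccr1, Ccr4, Cxcr2 and Cxcr4 windows held none of these. The Ccr2 window held ATTAA on each strand in the capitalised letters, where the matches overlap, and AGATAA on the minus strand, its letters beginning at position −97 from the RefSeq start. The Ccr9 window held ATTAA on the minus strand. Over all 32851 windows of that length, 24.9% held ATTAA, 9.99% AGATAA, 10.6% GAGGAAG and 9.56% TTGCNNAA. A match describes the letters of the window and is not a binding site.

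Cxcr2, the receptor of neutrophils for Cxcl1, Cxcl2 and related chemokines, rose with MIG-Hhex. Its log2 values were 3.19, 4.69 and 4.58 in the MIG-Hhex libraries of replicates WT3, WT691 and WT703, against 1.30, 2.81 and 2.27 in the MIG libraries. Every MIG-Hhex library lay above every MIG library, and replicate WT3 was the lowest of each group. The rise was 4.07-fold (log2 2.03, SE 0.15, limma adjusted p = 0.00118), and the 3 within-replicate differences of 1.89, 1.89 and 2.30 lay close together. The call held in all 9 left-out runs, which omitted either a replicate name or a single library (limma adjusted p up to 0.00959), and was lost without the flow cell term (limma adjusted p = 0.127).

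Ccr2, the receptor for Ccl2 that monocytes use to leave the marrow, fell. It stood at 4.09, 4.08 and 4.25 in the MIG-Hhex libraries, against 5.58, 6.41 and 6.56 in the MIG libraries, in the order WT3, WT691 and WT703. The MIG-Hhex libraries lay within an SD of 0.10, and the MIG libraries, all above them, within an SD of 0.52. The difference was −2.04 (SE 0.17, 4.12-fold lower, limma adjusted p = 0.00147), and within replicates it was −1.50, −2.33 and −2.30.

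Ccr1, a receptor for Ccl3, Ccl5 and, in mouse, Ccl6 and Ccl9, fell as well. Its values were 2.18, 2.10 and 1.64 in the MIG-Hhex libraries and 3.59, 4.69 and 4.45 in the MIG libraries, again without overlap. The difference was −2.27 (SE 0.27, 4.82-fold lower, limma adjusted p = 0.00431), and it was −1.41 within replicate WT3, against −2.58 and −2.81 within the other replicates. Ccr1 and Ccr2 were the only members past the threshold in each of the 9 left-out runs and in each of the 7 other settings tried, with limma adjusted p up to 0.0444 for Ccr1 and 0.0286 for Ccr2.

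Ccr9, the receptor for Ccl25 in gut and thymus, sat near the bottom of the table. It had −5.53, −5.53 and −4.59 in the MIG-Hhex libraries, against −6.18, −1.50 and −1.20 in the MIG libraries. Both MIG libraries of flow cell C5LWPANXX were high, and the MIG library of replicate WT3 was the lowest of all 6. The difference of −2.26 (SE 1.02) did not pass (limma adjusted p = 0.174). Without replicate WT3 it was −3.71 and passed (limma adjusted p = 0.0287), and likewise without that replicate's MIG-Hhex library (0.0396) or its MIG library (0.0372). All 6 Ccr9 values are below 0, and with values under 0 set to 0 the difference was 0. In GENCODE the gene overlaps 6 others, and 347 of its exonic bases are shared with them. The RefSeq gene is shorter, and which gene model was counted is not known here, so whether reads of another gene entered is unknown. Of the 50-base windows of its GENCODE transcripts, 2.13% also occur in another gene. That share was 4.01% for Cxcr2, 1.91% for Ccr2, 0.465% for Ccr4 and 0% for the other receptors.

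Of the protein-coding genes that RefSeq places from Ccr9 to Ccr2, 4 of 8 had values. Besides the receptors these included Fyco1, a gene of autophagosome transport, at 0.52 ± 0.84 with MIG-Hhex and 0.97 ± 0.56 with MIG (SD, n = 3 each; limma adjusted p = 0.112). The lower calls in this stretch were thus Ccr1 and Ccr2, which lie 133.0 kb apart with Ccr1l1 and Ccr3, not analysed here, between them.

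Ccr4, Ccr7 and Ccr10, receptors best known from lymphocytes and dendritic cells, were higher at low levels. Ccr4, the receptor for Ccl17 and Ccl22, had −0.92, −0.47 and −0.69 in the MIG-Hhex libraries, against −2.0, −4.87 and −5.64 in the MIG libraries. The MIG-Hhex libraries lay close together above all MIG libraries, and the MIG library of replicate WT3 stood apart from the other MIG libraries. The difference of 3.48 (SE 0.78, limma adjusted p = 0.0283) corresponds to 11.1-fold. All 6 values are below 0, where the unknown offset added before the log weighs most, and with values under 0 set to 0 the difference is 0. The call was lost without replicate WT691 (limma adjusted p = 0.115) or WT703 (0.142) and without any one of their 4 libraries (0.0624 to 0.112).

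Ccr7, which guides dendritic cells and T cells to lymph nodes, had −0.82, 0.29 and 0.71 in the MIG-Hhex libraries and −1.94, −0.93 and −0.42 in the MIG libraries. The groups overlapped, since replicate WT3 was the lowest of each, yet the differences within replicates of 1.11, 1.22 and 1.13 were nearly equal. The rise of 1.15 (SE 0.25, 2.22-fold, limma adjusted p = 0.0267) missed the threshold in all 9 left-out runs (adjusted p by limma from 0.0585 to 0.11).

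Ccr10, the receptor for Ccl27 and Ccl28 in skin and mucosa, had 1.0, 1.52 and 1.05 in the MIG-Hhex libraries and 0.08, −0.06 and −0.97 in the MIG libraries. Every MIG-Hhex library lay above every MIG library, and the difference was 1.51 (SE 0.32, 2.84-fold, limma adjusted p = 0.0244). It was not called without replicate WT691 (limma adjusted p = 0.0532) or WT703 (0.0681), nor without the MIG-Hhex library of replicate WT691 (0.0933) or WT703 (0.0629). The gene overlaps Cntnap1 on the other strand, with 0 exonic bases in common.

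Cxcr4, the receptor for Cxcl12 that retains progenitors in the marrow, had the highest mean of the family in both groups. Its values were 7.13, 5.96 and 5.83 in the MIG-Hhex libraries and 6.96, 6.11 and 6.12 in the MIG libraries, so both libraries of replicate WT3 were about a unit above the rest. The difference of −0.09 had a 95% interval from −0.31 to 0.13 (SE 0.09, limma adjusted p = 0.522). It was 0.17 within replicate WT3 and −0.15 and −0.29 within the others.

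**Figure D2:**
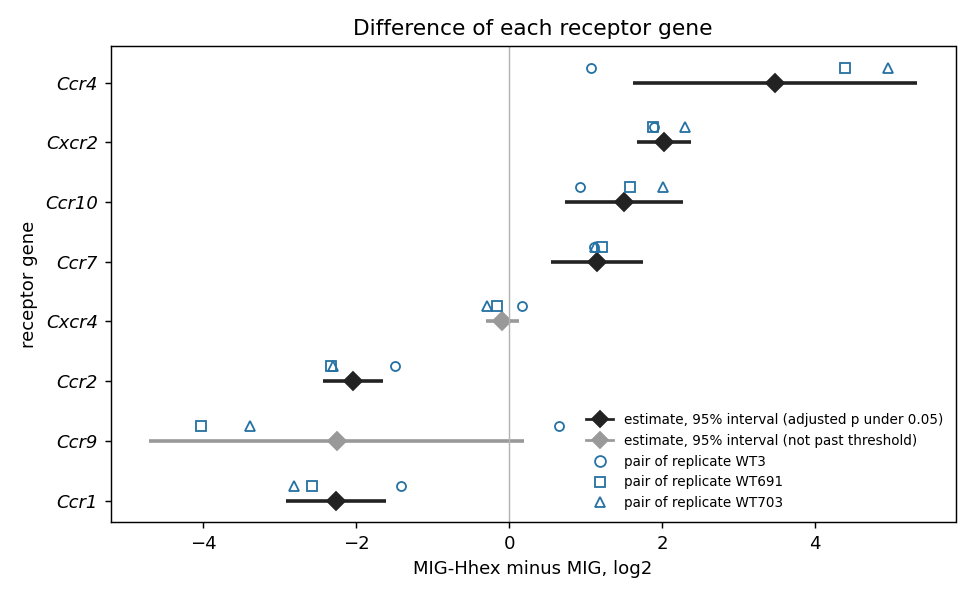
Difference of each receptor gene between MIG-Hhex and MIG (horizontal axis, log2; receptor genes run down the page from the highest difference). Diamonds with bars are limma estimates with 95% intervals, black where the adjusted p is under 0.05, and open blue markers are the differences within each replicate; the Ccr4 and Ccr9 markers of replicate WT3 stand far from those of the other replicates, while the Ccr7 markers nearly coincide.

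The order of the receptors within a group changed. Levels were compared between genes on the deposited scale, which behaves as a value per gene length. With MIG-Hhex the order of means was Cxcr4 (6.31), Cxcr2 (4.15), Ccr2 (4.14), Ccr1 (1.97), Ccr10 (1.19), Ccr7 (0.06), Ccr4 (−0.69) and Ccr9 (−5.21). With MIG it was Cxcr4 (6.40), Ccr2 (6.18), Ccr1 (4.24), Cxcr2 (2.13), Ccr10 (−0.32), Ccr7 (−1.10), Ccr9 (−2.96) and Ccr4 (−4.17). The libraries of neighbours overlapped for Cxcr2 with Ccr2 and for Ccr7 with Ccr4 under MIG-Hhex. Under MIG they overlapped for Cxcr4 with Ccr2 and along the whole run of Ccr10, Ccr7, Ccr9 and Ccr4. Cxcr2 and Ccr2 thus stood at overlapping levels with MIG-Hhex, while every MIG library had Ccr2 above Cxcr2.

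Whether the differences varied between the flow cells was tested as an interaction. For Ccr4 the difference on flow cell C5LWPANXX minus that on C3RJFACXX was 3.60 (SE 0.86), for Ccr9 −4.36 (SE 1.30), for Ccr1 −1.28 (SE 0.32) and for Ccr2 −0.82 (SE 0.16). For Cxcr4 it was −0.39 (SE 0.12). These 5 of the 8 receptor genes had an unadjusted p under 0.05, as had 600 of the 12161 genes, and none of either passed after adjustment (limma adjusted p of 0.928 or more for the receptors). Flow cell C3RJFACXX holds 1 library of each group, and these are assumed to vary like the others. Replicate WT3, the pair on C3RJFACXX, also had the smaller Hhex level with MIG-Hhex and, in both groups, the lower Ly6a level given above. The parts of flow cell, Hhex level and cell composition in these differences cannot be told apart here and were not tested.

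The genes most like each called receptor were found by the root-mean-square difference of log2 profiles over the 6 libraries, each centred on its own mean. Ccr1 and Ccr2 were among the 5 closest to each other at 0.28 (Pearson's r 0.976). Also among the closest to Ccr1 were Tmem156, Mmp8 and Yes1, at 0.23 to 0.26. The others closest to Ccr2 were Cd33, Yes1, Grap2 and Plxdc2, at 0.26 to 0.29. Nearest to Cxcr2 were Adam11, Tgm2, Spp1, Card6 and Camkk1, at 0.20 to 0.31. For Ccr7 they were Tns1, Zfp831, Gcnt2, Epb41l1 and Il18r1 (0.14 to 0.23), and for Ccr10 Lag3, Cacnb3, Adgre1, Rxra and Rtkn (0.16 to 0.21). Ccr4 had no profile as close, with Aif1, Plxdc1, Ifi27l2a, Myo18b and Pla1a at 0.53 to 0.69. Of these genes, Adam11, Yes1, Grap2, Zfp831, Lag3, Cacnb3, Rtkn, Myo18b and Pla1a averaged below 0 in both groups. With values under 0 set to 0 their differences were 0. Zfp831 itself was not called (limma adjusted p = 0.125). Adam11 lost its call in 8 left-out runs, and Lag3, Cacnb3, Rtkn and Epb41l1 in 9. Yes1, Grap2, Il18r1 and Pla1a lost theirs in 6, Ifi27l2a and Myo18b in 5, and Tmem156 in 4. Plxdc1, Tns1 and Mmp8 lost theirs in 2, and Aif1, Card6 and Camkk1 in 1. The other called genes among these kept theirs in all 9. These are descriptions over 6 libraries that share flow cells.

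Chemokine ligands were measured in the same cells where they had a row, which leaves out Cxcl12, Cxcl1, Ccl17, Ccl22, Ccl19 and Ccl28, not analysed here. For each gene group that follows, the shares of all genes were 9.44% higher and 8.52% lower. Of 10 CC chemokine ligands with values, 1 rose and 0 fell, 9 missed the threshold, and the median difference was 0.42 beside −0.02 over all genes. The one that rose was Ccl6, a ligand of mouse Ccr1, with 7.20, 6.72 and 6.14 in the MIG-Hhex libraries and 5.99, 5.47 and 4.88 in the MIG libraries (log2 difference 1.24, SE 0.19, limma adjusted p = 0.00937). Of 6 CXC and other ligands, 1 rose and 1 fell. Cxcl10, an interferon-induced ligand of Cxcr3, rose by 1.49 (SE 0.36), and Pf4, a platelet chemokine, fell by 0.94 (SE 0.15). Cxcl10 was not called in 6 of the left-out runs (adjusted p to 0.126 by limma), nor Ccl6 in 1 (0.0501).

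Of 4 genes measured in the list of related or atypical receptors, 3 rose, 0 fell and 1, not itself a receptor, did not pass. Cmklr1, the receptor for chemerin, had 2.52, 3.91 and 3.23 in the MIG-Hhex libraries, against −1.25, 0.61 and −0.50 in the MIG libraries, a log2 difference of 3.60 (SE 0.32, limma adjusted p = 0.00179). Cx3cr1, the fractalkine receptor, rose by 0.87 (SE 0.19) and Ccrl2, which binds chemerin without signalling, by 0.76 (SE 0.17). Of the left-out runs, 8 lost the call of Cx3cr1 and 6 that of Ccrl2 (largest adjusted p by limma 0.128 and 0.131).

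Among 14 other leukocyte chemoattractant receptors, 3 rose and 4 fell. Ltb4r1, a leukotriene B4 receptor, rose by 1.22 (SE 0.08), Ptafr, the receptor for platelet-activating factor, by 1.82 (SE 0.21), and C3ar1, the receptor for complement C3a, by 0.96 (SE 0.21). P2ry14, a receptor for UDP-glucose, fell by 1.07 (SE 0.11), and of the sphingosine 1-phosphate receptors S1pr3 fell by 0.60 (SE 0.10) and S1pr1 fell by 2.54 (SE 0.47). S1pr1 lay below 0 with MIG-Hhex, and with values under 0 set to 0 its difference was −0.13 and was not called (limma adjusted p = 0.487). In left-out runs C3ar1 lost its call 6 times, S1pr3 4 times and S1pr1 3 times (limma adjusted p up to 0.166, 0.0713 and 0.0653).

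Genes of the shared signalling machinery changed in both directions. Of 13 G protein subunits, 3 rose and 2 fell, with a median of −0.06. Gna15 rose by 0.49, Gng2 by 0.62 and Gnai2, the main inhibitory alpha subunit of leukocytes, by 0.31, while Gng12 fell by 1.16 and Gnb1 by 0.31. Of 16 genes of desensitization and trafficking, 5 rose and 2 fell, with a median of 0.22. The receptor kinases Adrbk2 and Grk5 rose by 0.81 and 0.69 and the arrestin Arrb1 by 0.82, and Rgs18, which speeds G protein shut-off in platelets and progenitors, fell by 1.04 and Rab5a, of early endosomes, by 0.27. Leaving out libraries ended the call of Gnai2 in 8 of 9 runs, of Grk5 in 9 and of Rab5a in 8 (largest adjusted p by limma 0.111, 0.115 and 0.139), and that of Gnb1 in 3 (0.083).

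Of 23 effectors of chemotactic signalling, 9 rose and 3 fell, 11 missed the threshold, and the median was 0.21. Prex1, a Rac activator driven by G protein subunits, rose by 0.90 (SE 0.10), the Src-family kinase Fgr by 1.31 (SE 0.19) and the phospholipase Plcb2 by 0.75 (SE 0.12). Elmo1, a partner of Dock proteins, fell by 0.41, the Rac activator Vav3 by 0.61 and Pik3cg, the catalytic subunit of the lipid kinase PI3K gamma, by 0.31. None of the left-out runs called Pik3cg (largest adjusted p by limma 0.125), and 2 did not call Plcb2 (0.0545). Of 9 genes of marrow retention, 1 rose and 2 fell. The protease Mmp9 rose by 2.97, or by 0.97 and uncalled with values under 0 set to 0 (limma adjusted p = 0.175), and the integrin Itga4 and the hyaluronan receptor Cd44 fell by 0.71 and 0.31. Itga4 was not called in 5 of the left-out runs and Cd44 in 6 (largest adjusted p by limma 0.11 and 0.0986).

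**Figure D3:**
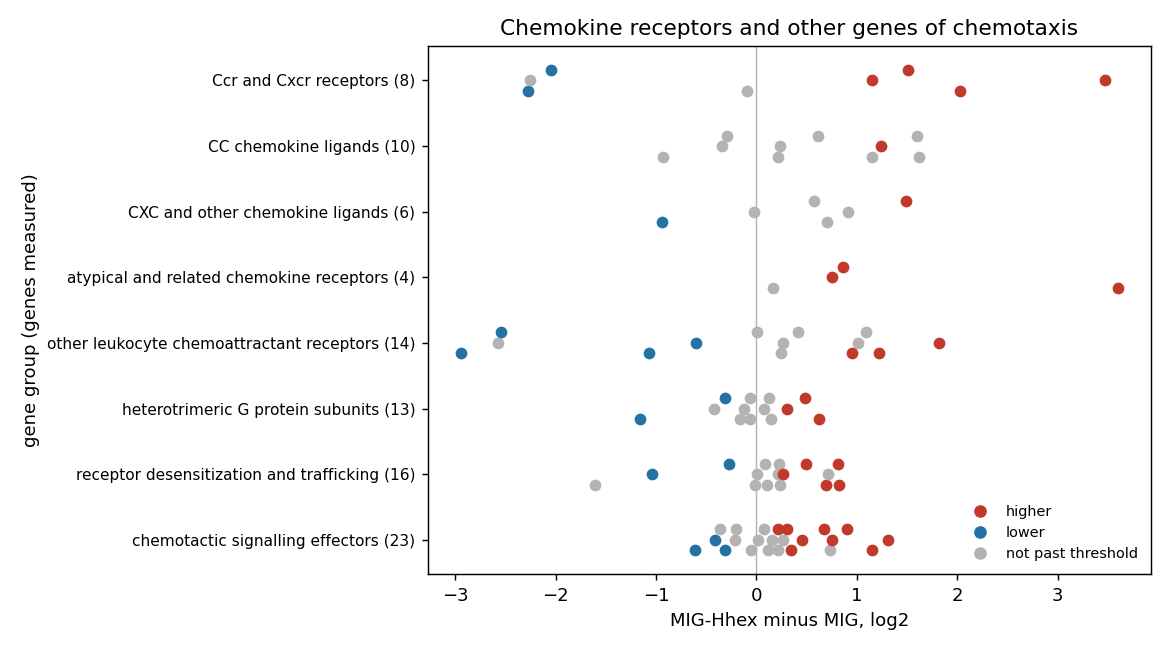
Difference between MIG-Hhex and MIG (horizontal axis, log2) for the 8 receptor genes, in the top line, and for the measured genes of 7 further groups. Each point is a gene, red where higher, blue where lower and grey where it did not pass the test, and the vertical offset within a line only separates points; G protein subunits, desensitization genes and effectors mostly lie within 1 log2 unit of 0.

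Markers listed for blood cell types were counted in the same way, and their linear values were summed. The lists do not separate mature cells from their precursors, and Flt3 is in both the LSK list and the lymphoid and dendritic cell list. Such a sum mostly follows the markers of highest level in its list, so it does not weigh the markers evenly. Of 14 neutrophil markers measured, 9 rose and 1 fell, with a median of 1.15, and the log2 of their summed linear values was 11.96 to 12.35 with MIG-Hhex and 10.97 to 11.73 with MIG. They include Cebpe, Padi4 and Ngp, higher by 1.67, 1.18 and 2.08, and Mmp8, lower by 1.94. Of 13 monocyte markers, 3 rose and 4 fell, and their sum was 8.80 to 10.89 with MIG-Hhex and 8.66 to 10.62 with MIG. Irf8, Lyz1 and Cx3cr1 rose by 0.54, 1.26 and 0.87, and Cd14, F13a1 and Ms4a6c fell by 0.75, 2.69 and 2.07. Lyz1 has a near-identical neighbour, Lyz2, which did not pass (0.69, limma adjusted p = 0.059). Lyz1 was not called in 5 of the left-out runs, nor Mmp8 in 2 (largest adjusted p by limma 0.105 and 0.0534).

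Of 9 eosinophil markers, 2 rose, Alox15 by 4.80 and Siglecf by 1.81, and the sum was 5.99 to 6.94 with MIG-Hhex and 3.09 to 6.45 with MIG. Of 8 basophil and mast cell markers, Hdc rose, by 1.35, and 4 fell, among them Mcpt8, Cpa3 and Cd200r3 by 1.12, 2.19 and 3.62. With values under 0 set to 0, the difference of Alox15 was 2.78, and that of Cd200r3 was −0.12 and not called (limma adjusted p = 0.379). Their sum was 7.56 to 8.32 with MIG-Hhex and 7.79 to 8.88 with MIG. Of 16 listed lymphoid and dendritic cell markers 6 had values. Itgax and Tcf7 rose by 3.04 and 1.33 and 0 fell, with sums of 6.23 to 7.15 with MIG-Hhex and 6.65 to 7.42 with MIG. The part of cell composition in the receptor differences was not tested.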

How the data were processed

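The authors deposited one table of log2 expression values, 1 row per Entrez gene and 1 column per library. The tools named per the submitters' processing notes are edgeR, limma, featureCounts and Subread, with build mm10. Their versions and order and the normalization were not given in the sources used. The values behave as quantile-normalized per gene length: with log2 of the GENCODE M21 exonic length added (11700 genes), the SD over genes ran from 2.564 to 2.577 across libraries, against 2.582 to 2.688 as deposited. Such scaling hides an overall change in RNA, and no depth or counting interval can be given.

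All 12161 genes were fitted with limma 3.58.1 in R 4.3.3 (terms for flow cell and vector, eBayes with trend, two-sided, Benjamini-Hochberg over all genes, threshold 0.05), and the fit was tested on simulated data. Differences are MIG-Hhex minus MIG. Replicate names were checked for pairing: deviations from group means correlated at 0.742, 0.585 and 0.656 for WT3, WT691 and WT703. Flow cell was not removed first, and libraries of different names were not compared. Since WT3 is alone on its flow cell in both groups, the check cannot tell pairing by name from flow cell. The names were taken from the labels to pair the libraries. Members and lists were chosen with earlier results of these data known. The genes named from other lists are up to 3 called in each direction with the smallest p, the 1 of smallest p in a list without calls, Ly6a and Kit as genes of the sort markers, Lyz2 as a near-identical copy of Lyz1, neighbours in the chromosome 9 cluster, and the 5 profiles nearest to each called receptor. No per-sample column was left unused. A few genes, 1 of them a receptor that meets the rule, entered the fit and are not reported here. Positions are from RefSeq GRCm38.p6 and GENCODE M21, the same build as mm10.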

Additional observations from a re-analysis of the deposited data

How the results depend on the processing

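Ccr1 and Ccr2 stayed lower and past the threshold in every run tried, and the number of receptor genes called lower was 2 to 3 in the 9 runs that left out a replicate or a library. The number called higher was 4, but 1 to 3 in those 9 runs, 0 without the flow cell term, and 2 with genes under a mean of 0 removed, with values under 0 set to 0, or without the variance trend. For all genes, 1148 were higher and 1036 lower. The left-out runs gave 355 to 835 and 270 to 634, the fit without flow cell 119 and 98, values set to at least 0 539 and 512, and the fit without trend 638 lower. With the replicate block, which pairs the libraries by replicate name, 4 receptor genes were higher and 2 lower, and 1506 and 1473 of all genes. The block changed no receptor call. A common median or quantile normalization changed no receptor call either. The difference of Cxcr4 turned to 0.00988 without replicate WT703, and ran down to −0.22 without replicate WT3. The filter on the mean removed Ccr4, Ccr7 and Ccr9, so it gives no value for them. Each of Ccl6, Adrbk2, Gna15, Gng2, Elmo1, Vav3, Mmp9, Cd14, Ms4a6c and Siglecf lost its call in 1 left-out run. Of the 48 called genes named from other lists, 38 lost the call without the flow cell term, 21 with values under 0 set to 0, 10 without the trend and 0 with the block. Why settings differ was not tested. Values below 0 depend most on the unknown offset, and no depth is known.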
